A study of Mus musculus with 8 samples.

Results

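The genes that encode the proteins of the cytosolic ribosome were examined in the cortex of PS19 tauopathy mice with and without the Adrb1-A187V mutation. The members were all protein-coding rows of the count table whose symbol is that of an Rpl or Rps gene, or Rplp0, Rplp1, Rplp2 or Rpsa, without the Rps6k kinase genes. This gave 83 of the 54532 genes in the table, 32 named for the small subunit and 51 for the large subunit. PS19 mice carry a transgene for human 1N4R tau with the P301S mutation under the mouse prion protein promoter, and both groups carried it. The Adrb1-A187V;PS19 mice (written Adrb1+/m;PS19 in the labels) were in addition heterozygous for a knock-in, made with CRISPR/Cas9, of the short-sleep variant of the beta-1 adrenergic receptor. All mice were C57BL/6 and 8 mo old. There were 4 mice per genotype with 1 cortical RNA library each: PS19 mice m677, m668, m665 and m659 and Adrb1-A187V;PS19 mice m671, m661, m660 and m658. Neither the point mutation nor the human transgene could be checked from counts per mouse gene.

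A ribosome has a small subunit, which holds the mRNA and its decoding site, and a large subunit, which joins amino acids and releases the growing chain through an exit tunnel. Each ribosomal protein is needed in about equal number, and most of the mRNAs start with a run of pyrimidines, the terminal oligopyrimidine tract, through which the mTORC1 kinase and Larp1 control their translation as a group. In neurons, ribosomes occur in cell bodies, dendrites and axons, and mTORC1 and protein synthesis take part in synaptic plasticity. Most ribosomal protein genes also have many processed pseudogenes, which are copies of the spliced mRNA put back into the genome.

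The start sites of the members carried the tract at a higher rate than other genes did. RefSeq promoter windows (GRCm38.p6, 250 bases before to 50 after the start) matched 63 of the 83 members. In 29 of these (46.0%) at least 5 pyrimidines, opened by C, began within 5 bases of an annotated start, compared with 5718 of 27025 genes of the table (21.2%). The following windows of 30 bases show this shared feature, with the tract in capitals. They are those of the gene with the smallest p between genotypes (Rps21), the S6 kinase substrate Rps6, a stalk protein (Rplp2) and Rpl38. The last are those of Rps27 and its copy Rps27rt, a pair whose counts moved in opposite directions among mice. The places are chr2:180257365-180257394 (+) for Rps21, chr4:86857352-86857381 (-) for Rps6, chr7:141447637-141447666 (+) for Rplp2, chr11:114668566-114668595 (+) for Rpl38, chr3:90213633-90213662 (-) for Rps27 and chr9:114982724-114982753 (-) for Rps27rt.
Rps21: accgaggacccgccCTCCTgcccaatagtg
Rps6: agcggaagtcgggcCTCTTTTTCgtgacgc
Rplp2: gcgtcagcgtcttcCTTTCgccgccggacg
Rpl38: gcggaagcctcgttCTTTCCCCgttctctt
Rps27: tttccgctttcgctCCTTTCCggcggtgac
Rps27rt: gaacttatcccttgCTTTCCggcggtgacg
On either strand of the windows, CCGGAAG, the core letters of an ETS factor motif, was found in 26 members (41.3%) and in 9.93% of all genes of the table. The YY1 letters AAGATGG were found in 10 members (15.9%) and in 7.28% of genes, and the TATA letters TATAAA in 7 members (11.1%) and in 15.7% of genes. A match is a description of the letters and not a binding site. The 29 tested members with a tract had a median log2 fold change of -0.03, and the 30 tested members with a window but no tract a median of -0.03.

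The libraries held between 14653222 and 21223754 counted reads. Ribosomal protein genes took 1.08 to 1.25% of the counts in PS19 mice (1.14% ± 0.0800, SD, n = 4) and 1.06 to 1.19% in Adrb1-A187V;PS19 mice (1.12% ± 0.0565, SD, n = 4), and these ranges overlapped. A minimum of counts left 17195 genes for testing, 79 of them members. Markers of neurons, astrocytes, microglia, oligodendrocytes and endothelial cells, and of cortical excitatory and inhibitory neurons, were detected in every library. Choroid plexus markers were uneven, with summed levels from 25.0 to 368 CPM (counts scaled to a common library size) across the PS19 group and from 26.9 to 584 CPM in Adrb1-A187V;PS19 mice. In bulk tissue, fewer cells of a type cannot be told apart from less RNA per cell.

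Ribosomal protein genes were among the most highly expressed genes of the cortex. Per kb of gene length, the 79 tested members had a median of 71.9 CPM, against 4.32 CPM for all tested genes, and 65 of them lay above the 90th percentile of all tested genes (28.0 CPM per kb). The levels per kb spread over a 595-fold range, although most of the proteins are used in nearly equal number. Without Rps10, a gene whose reads lay mostly on its copies, the range was 98.6-fold. The lowest gene was then Rpl13a, with 59.3% of its mRNA under another gene on the same strand. It was followed by the paralogs Rpl22l1, Rpl7l1 and Rps27l. The range is thus no measure of how far the core genes differ. The highest was Rplp1 (chr9:61913284-61914542), a protein of the P stalk that recruits elongation factors, with 657 CPM per kb. It was followed by Rps15, near the decoding site, with 376 CPM per kb, Rpl38 with 266 CPM per kb, Rpl36 with 262 CPM per kb, and Rps3a1 with 261 CPM per kb. The last 3 of these levels did not differ beyond their spread, as the median coefficient of variation of a member was 7.51% among PS19 mice and 7.31% among Adrb1-A187V;PS19 mice. The other stalk proteins were lower, with 112 CPM per kb for Rplp0, which anchors the stalk, and 45.8 CPM per kb for Rplp2, the partner of Rplp1. The gene length used here exceeds the representative mRNA by far for some members, such as Rplp2 (2072 and 964 bases) and Rps19 (4685 and 774 bases). For Rplp1 both are 499 bases. Levels per kb, their range and their order thus depend in part on this length.

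**Figure D1:**
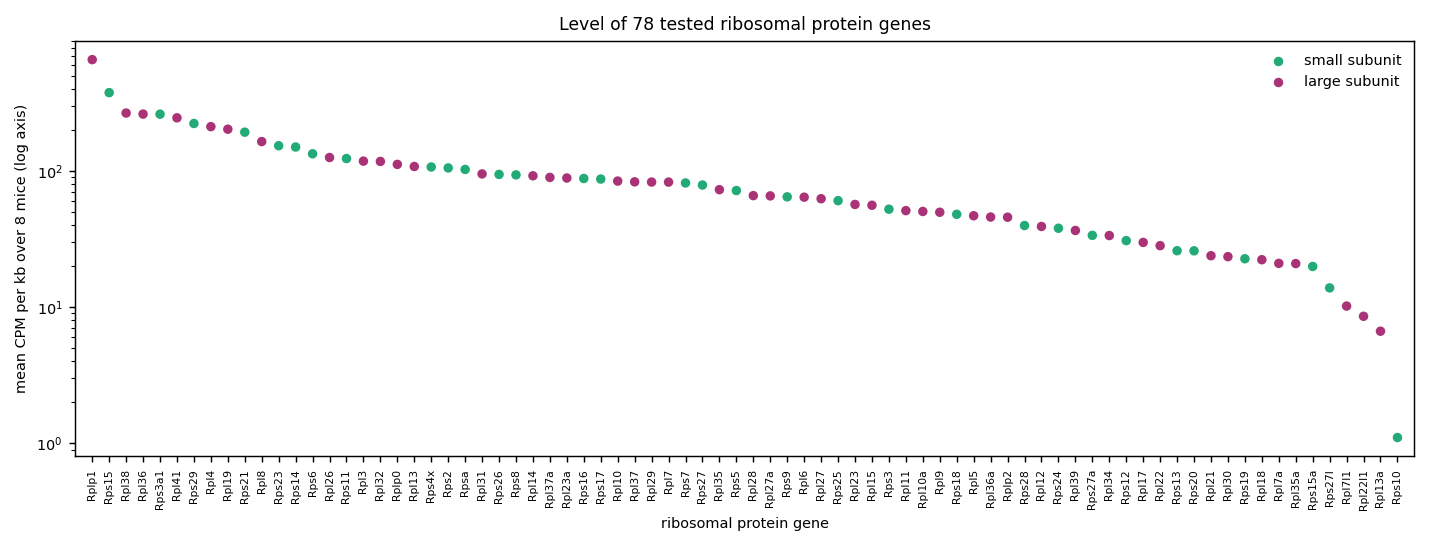
Mean CPM per kb of gene length over the 8 mice for 78 of the 79 tested ribosomal protein genes, on a log axis, coloured by subunit. Rplp1 is at the top with 657 CPM per kb and Rps10 at the bottom with 1.10 CPM per kb, and both subunits are spread over the whole range.

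The 5 lowest tested members were Rps10 with 1.10 CPM per kb, Rpl13a with 6.66, Rpl22l1 with 8.58, Rpl7l1 with 10.2 and Rps27l with 13.9 CPM per kb. The last 3 are paralogs of more highly expressed genes. Rps10 (chr17:27630418-27636669), a small subunit protein at the mRNA entry, and Rpl13a (chr7:45125558-45128761), a large subunit protein, are core proteins of every ribosome. On the same strand, 53.6% of the Rps10 mRNA and 59.3% of the Rpl13a mRNA overlap another annotated gene, and the read-through genes that cover them, RPS10-NUDT3 and Gm45713, were listed at 0 counts in all 8 mice. Rpl24 (chr16:55966275-55971435), another core protein, had 71.5% of its mRNA under the gene Gm28037, also listed at 0, and only 5, 5, 12 and 5 counts in PS19 mice and 7, 15, 10 and 16 counts in Adrb1-A187V;PS19 mice. Rpl24 was 1 of the 4 members that did not pass the filter. The others were Rpl3l, a muscle paralog of Rpl3 with 0 to 23 counts, Rpl39l, a testis paralog of Rpl39 with 0 to 2 counts, and Rpl10l, a testis paralog of Rpl10 with no count in any mouse, where 3 counts per library is the limit that 0 allows. Whether the counts of Rps10, Rpl13a and Rpl24 stand for their mRNA levels was not tested. A further 7 members (Rpl5, Rps25, Rpl31, Rpl35, Rpl23a, Rpl30 and Rpl22l1) have more than 20% of the mRNA under a gene on the other strand, and without a stated strand setting such reads cannot be told apart.

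Copies elsewhere in the genome also took reads. A search of the transcript set for genes that share at least 20% of the 31-base words with a member found 684 copies for 80 of the 83 members, most of them processed pseudogenes. Together they held 8.52% of all reads counted on members and copies, with a median of 3.002% per member. For 3 members the copies held more than the gene itself. Rpl17, a protein of the exit tunnel, had 86.7% of the summed reads on its copies, with 1347 to 1971 counts on Rpl17-ps10 and 743 to 1089 counts on Rpl17-ps3 in the 8 mice. Rps10 had 94.3% on its copies (2.55 CPM alone and 44.5 CPM with them), with 583 to 810 counts on Rps10-ps2, and Rpl24 had 72.01%. A level of these members is therefore uncertain.

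The counts on Rps27 and its copy Rps27rt moved in opposite directions from mouse to mouse. Rps27, a zinc-binding protein of the small subunit, has 4 exons at chr3:90212671-90213651 (-). Rps27rt is a copy without introns at chr9:114982366-114982739 (-). In the GENCODE transcripts of GRCm38 both genes hold 1 coding sequence of 255 bases, with no base different between them, and the identity runs on over 341 bases. The coding sequence, shown because its reads match both genes, is given here with its start and stop codons in capitals.
Rps27 and Rps27rt: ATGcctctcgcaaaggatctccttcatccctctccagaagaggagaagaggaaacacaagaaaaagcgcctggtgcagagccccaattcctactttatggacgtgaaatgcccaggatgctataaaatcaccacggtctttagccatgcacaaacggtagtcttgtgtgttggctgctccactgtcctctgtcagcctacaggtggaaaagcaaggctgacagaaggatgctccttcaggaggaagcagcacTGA
Rps27 had 95.6, 105.3, 101.2 and 34.9 CPM in PS19 mice m677, m668, m665 and m659, and 114.5, 86.1, 51.3 and 69.3 CPM in Adrb1-A187V;PS19 mice m671, m661, m660 and m658. Rps27rt had 81.6, 22.2, 36.7 and 102.9 CPM in the same PS19 mice and 21.4, 43.3, 96.6 and 60.2 CPM in the same Adrb1-A187V;PS19 mice. The mice lowest in Rps27, m659 and m660, were those highest in Rps27rt, and those highest in Rps27, m671 and m668, were lowest in Rps27rt. The share of the copy in the sum ran from 15.8% in m671 to 74.7% in m659. The sum was far steadier, from 128 to 177 CPM, with a coefficient of variation within genotypes of 11.9%, against 36.7% for Rps27 and 60.0% for Rps27rt alone. By genotype, Rps27 had 84.2 ± 33.2 CPM (SD, n = 4) in PS19 mice and 80.3 ± 26.9 CPM (SD, n = 4) in Adrb1-A187V;PS19 mice, and did not pass (unadjusted p = 0.808 and adjusted p = 0.9996, edgeR). How the reads that match both genes were assigned is not given in the sources used here, and the pair was picked after its values were seen.

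**Figure D2:**
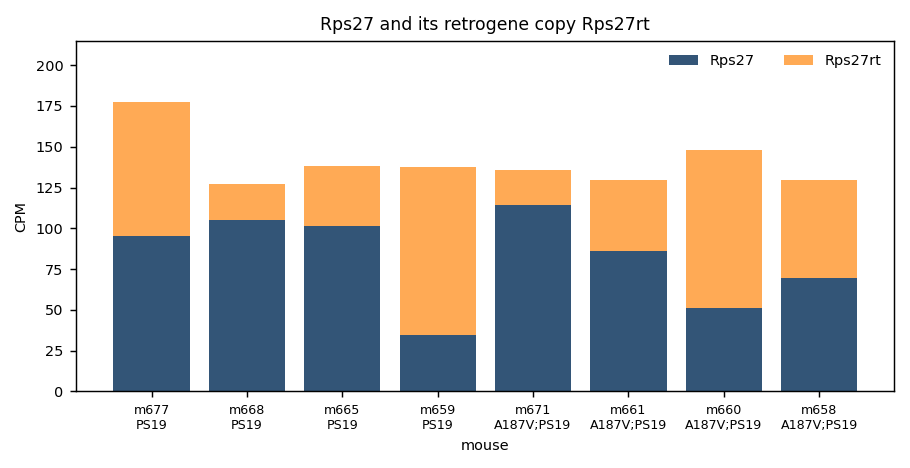
Stacked CPM of Rps27 (dark) and its intronless copy Rps27rt (light) in each of the 8 mice, 4 per genotype. The bar heights stay between 128 and 177 CPM, whereas the share of Rps27rt ranges from 15.8% in m671 to 74.7% in m659.

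To ask whether the Adrb1-A187V mutation changed the expression of the ribosomal proteins in PS19 mice, the genotypes were compared across all genes. Most members differed little between them, and the differences leaned to lower levels in Adrb1-A187V;PS19 mice. At an unadjusted p under 0.05, 3 of the 79 tested members (3.80%) passed, all lower in Adrb1-A187V;PS19 mice and none higher, whereas 2.8% of all tested genes passed in either direction, 1.37% of them lower and 1.42% higher. None of the members passed after Benjamini-Hochberg adjustment over all genes (smallest adjusted p = 0.9996, edgeR quasi-likelihood test), nor did any other gene. DESeq2 also called 3 of 82 members at an unadjusted p under 0.05 (Rps21, Rpl37a and Rps29), and 0 after adjustment. It called 1.65% of 33611 genes (0.845% higher and 0.806% lower). These include genes with few counts that are not among the 17195 genes of edgeR. The share is therefore no like background for the members, most of which are highly expressed. Limma-voom called the same 3 genes, where it called 2.86% of all genes.

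The fitted log2 fold change was below 0 for 61 members and above 0 for 18, with a median of -0.03 against 0.00 for all tested genes. The shares below 0 were 77.2% of members and 49.8% of all genes. Small changes were the rule, since 60 of the 79 members had a fold change of less than 0.1 on the log2 scale in either direction, and the median size was 0.05 for members and 0.07 for all genes. Both subunits gave nearly the same value, with a median of -0.03 over 32 small subunit genes (24 below 0) and of -0.04 over 47 large subunit genes (37 below 0). The lean rested on single mice. Without PS19 mouse m677 the median was 0.01, without Adrb1-A187V;PS19 mouse m658 it was -0.01, and without Adrb1-A187V;PS19 mouse m671 it was -0.08. The number of members called was 10 without m671, 6 without m668 and 6 without m665. These counts were not set against the share of all genes called in the same fits, so they are no result about the members.

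**Figure D3:**
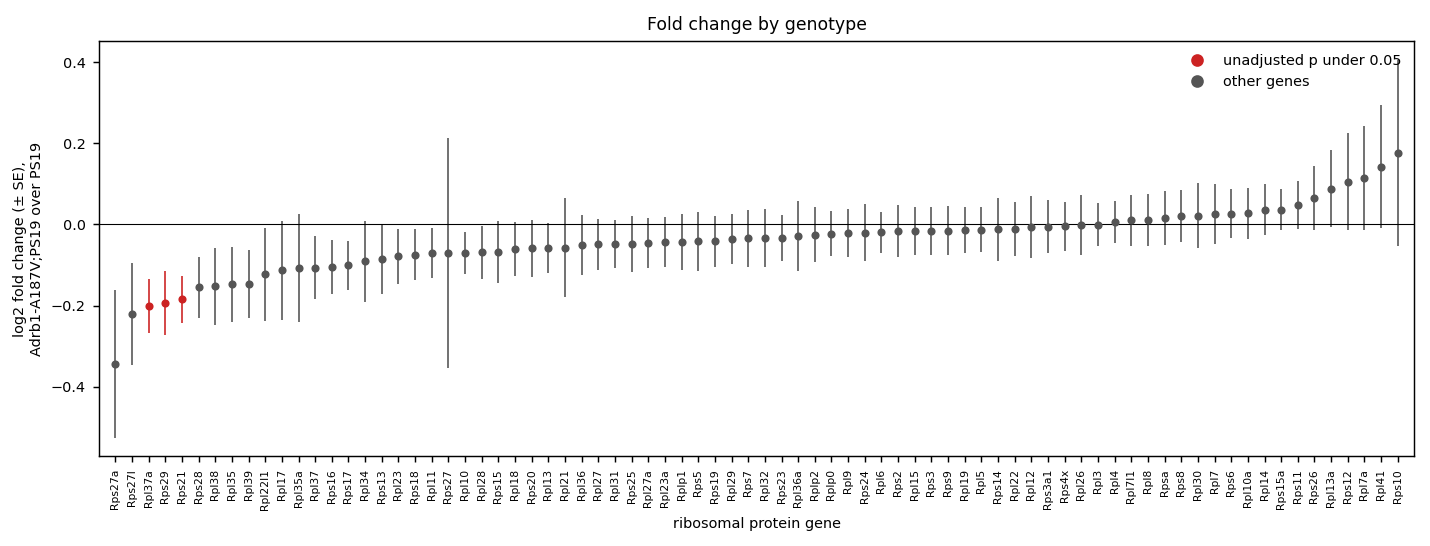
Log2 fold change of 78 of the 79 tested ribosomal protein genes in Adrb1-A187V;PS19 over PS19 mice, with bars of 1 SE from the edgeR fit. The 3 genes at an unadjusted p under 0.05 (red) are Rps21, Rpl37a and Rps29, and 60 of the 78 points lie below 0.

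The gene with the smallest p was Rps21 (chr2:180257377-180258445), a small subunit protein. It had 170.6, 172.5, 160.1 and 161.3 CPM in PS19 mice and 156.1, 153.2, 140.6 and 134.9 CPM in Adrb1-A187V;PS19 mice. All 4 mutant mice lay below all 4 PS19 mice, and Rps21 was the only member whose genotypes did not overlap (1 of 79, 1.27%, against 2.02% of all tested genes). The means were 166 ± 6.34 and 146 ± 10.1 CPM (SD, n = 4 each), a log2 fold change of -0.18 ± 0.06 (SE, unadjusted p = 0.00683 and adjusted p = 0.9996, edgeR). It passed at the unadjusted level in every one of the alternative fits, the leave-one-out fits included.

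Rpl37a (chr1:72711290-72713813), a zinc-binding protein of the large subunit, had 148.2, 130.4, 138.4 and 124.5 CPM in PS19 mice and 121.9, 124.9, 117.9 and 106.2 CPM in Adrb1-A187V;PS19 mice. The groups overlapped only by m659 and m661, which had 124.5 and 124.9 CPM. Its log2 fold change was -0.20 ± 0.07 (SE, unadjusted p = 0.00957 and adjusted p = 0.9996, edgeR), and it too passed at the unadjusted level in every alternative fit. Rps29 (chr12:69157722-69159186), a zinc-binding protein of the small subunit head, had 169.3, 171.0, 158.4 and 161.9 CPM in PS19 mice and 151.8, 166.5, 134.6 and 124.2 CPM in Adrb1-A187V;PS19 mice. Here m661 lay within the PS19 range and the other 3 mutant mice below it. The log2 fold change was -0.19 ± 0.08 (SE, unadjusted p = 0.0266 and adjusted p = 0.9996, edgeR). Its unadjusted p rose above 0.05 without m677 (0.0566), m668 (0.0589), m660 (0.0804) or m658 (0.0903), and without m677 and m671 together (0.0501). Copies held 0.172% of the summed reads of Rps21, 1.85% of those of Rpl37a and 1.48% of those of Rps29.

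**Figure D4:**
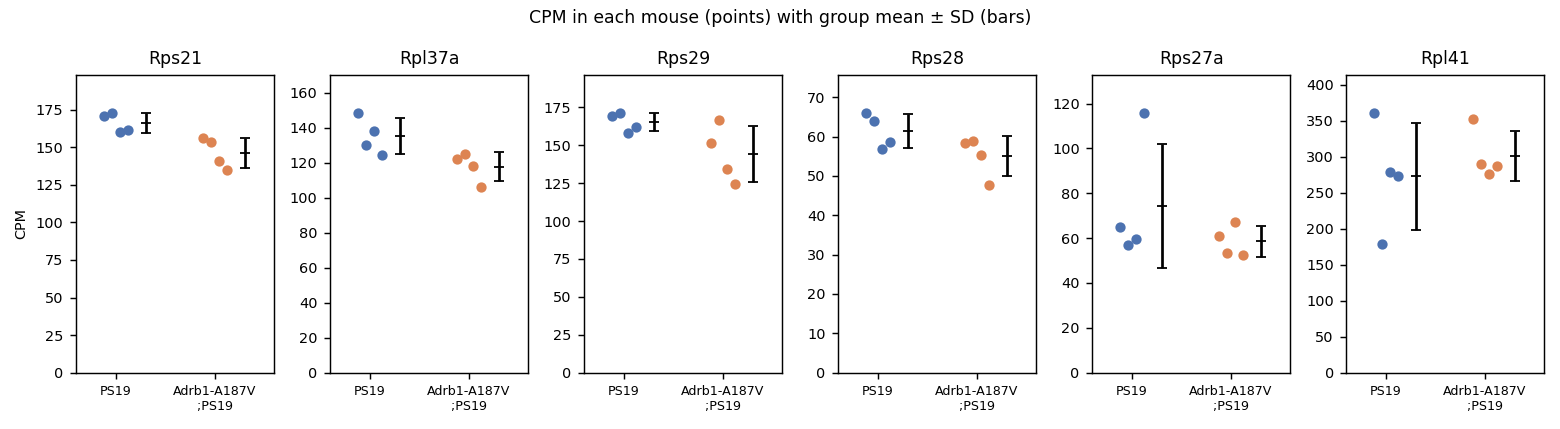
CPM in each mouse (points) with the mean and SD of 4 mice per genotype (bars) for 6 ribosomal protein genes, each axis starting at 0. Rps21 is lower in all 4 Adrb1-A187V;PS19 mice than in any PS19 mouse, whereas 1 PS19 mouse stands far above the others in Rps27a (m659, 115.6 CPM) and the PS19 mice span 178.9 to 360.0 CPM in Rpl41.

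Of the 3 genes, Rps21 and Rps29 have very short mRNAs, which was noticed after their values were seen. The representative mRNA is 394 bases for Rps21, 390 for Rps29 and 558 for Rpl37a, against a median of 780 for the tested members. All 6 tested members with an mRNA under 400 bases (Rps21, Rps28, Rps29, Rps27, Rpl36 and Rpl38) had a fold change below 0, with a median of -0.15 on the log2 scale. Of the 39 members shorter than the median, 33 were below 0 (median log2 fold change -0.05), and of the 40 others 28 were (median -0.02). Spearman's rho between mRNA length and log2 fold change was 0.38 across the 79 members, which share their 8 libraries. Protein-coding genes of at most 1000 bases that are not ribosomal also leaned to lower values, with a median log2 fold change of -0.03 over 280 genes, 3.93% of them at an unadjusted p under 0.05. For the 12 members within the same length the median was -0.06. RNA quality values were not given, and a part of RNA quality in this was not tested.

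By position in the ribosome, the genes of each group below were all uncalled. The P stalk genes Rplp0, Rplp1 and Rplp2 had log2 fold changes of -0.02, -0.04 and -0.03. Rpl5 and Rpl11, which form the 5S particle and bind Mdm2 when assembly fails, had -0.01 and -0.07. Rps6, the main ribosomal target of S6 kinase, had 222.2, 189.3, 208.0 and 220.8 CPM in PS19 mice and 224.6, 197.7, 218.7 and 215.4 CPM in Adrb1-A187V;PS19 mice, which overlapped (log2 fold change 0.03, unadjusted p = 0.666 and adjusted p = 0.9996, edgeR). Rps19, the gene most often mutated in Diamond-Blackfan anaemia, had a log2 fold change of -0.04, and of the 8 genes listed for that disorder 7 were below 0 and none was called. Rpsa, which is also known as a laminin receptor, had 0.02. The 7 genes around the exit tunnel had a median of -0.04 and the 8 listed for the small subunit head and mRNA entry, among which Rps29 was not counted, a median of -0.03, with none of the listed genes called.

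Rps27a (chr11:29545846-29548109), which is made as a fusion of ubiquitin and a small subunit protein, had the most negative fold change, -0.34 ± 0.18 (SE, unadjusted p = 0.0816 and adjusted p = 0.9996, edgeR). It had 64.9, 56.8, 59.8 and 115.6 CPM in PS19 mice and 61.1, 53.4, 67.3 and 52.5 CPM in Adrb1-A187V;PS19 mice. The difference rested on m659, which was far above the 7 other mice, and without m659 the log2 fold change was -0.05. In a fit without a count filter, Rps27a was the only member with an adjusted p under 0.05 (adjusted p = 0.00187, edgeR), at the same fold change. That fit also included m659, and this p was not set against the share of all genes that passed adjustment there. Rpl41, the shortest ribosomal protein, spread widely among PS19 mice, from the lowest value in m668 to the highest in m677, with 360.0, 178.9, 278.4 and 273.6 CPM in PS19 mice and 352.6, 289.1, 276.0 and 287.1 CPM in Adrb1-A187V;PS19 mice.

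Paralogs replace their main gene in some tissues, and Rpl22 represses Rpl22l1 in several of them. Both genes of a pair passed the filter in 4 of the 8 pairs examined. Rpl22l1 made up 22.9, 28.2, 24.0 and 20.9% of the summed level per kb of Rpl22 and Rpl22l1 in PS19 mice, compared with 20.8, 26.2, 22.8 and 20.3% in Adrb1-A187V;PS19 mice. The means were 24.0% ± 3.09 and 22.5% ± 2.68 (SD, n = 4 each) and the groups overlapped (p = 0.429, adjusted p = 1 over 4 pairs, 2-sided exact permutation test). Rpl7l1, which takes part in the assembly of the large subunit, was 11.1% ± 0.900 of its pair with Rpl7 in PS19 mice, compared with 10.9% ± 0.684 in Adrb1-A187V;PS19 mice (n = 4 each, exact p = 0.771). Rps4l, a processed copy of Rps4x that is annotated as a pseudogene and is no member, was 13.98% ± 3.29 and 13.996% ± 0.867 of its pair (n = 4 each, exact p = 1). Rps27l, which p53 induces, was 17.6% ± 8.11 and 15.1% ± 5.12 of its pair with Rps27 (n = 4 each, exact p = 0.571), a share that moves with the reads counted on Rps27rt. The smallest p that 4 against 4 mice can give is 0.0286, and with this number of mice a shift of the size of the SDs given cannot be told from none. Rpl36al had 2 to 16 counts and was not tested against Rpl36a, with which it made up 0.899% ± 0.230 and 0.750% ± 0.412 of the pair (SD, n = 4 each). The pairs of Rpl3l, Rpl10l and Rpl39l were not tested because these paralogs did not pass the filter.

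Apart from genotype, the members moved together from mouse to mouse. Averaged over the 79 tested members, the log2 CPM lay above the mean of all mice by 0.15 in PS19 mouse m677 and by 0.09 in Adrb1-A187V;PS19 mouse m671. It was 0.01 in m659, -0.03 in m668 and -0.04 in m665 of the PS19 mice, and -0.02 in m660, -0.05 in m661 and -0.09 in m658 of the Adrb1-A187V;PS19 mice. Each genotype thus had 1 mouse that was high in nearly all members, and the groups overlapped. In m677, 75 of 79 members were above their own mean, in m671 70, in m659 51, in m660 31, in m668 26, in m661 19, in m665 17 and in m658 11. Small and large subunit genes moved alike, with 0.14 and 0.15 in m677 and 0.11 and 0.08 in m671. The SD of this average within genotypes was 0.09 in PS19 and 0.08 in Adrb1-A187V;PS19 mice, and the median SD of a single member was 0.11 on the log2 scale, compared with 0.15 for all tested genes.

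Over the 3081 pairs of tested members, the median Pearson r of log2 CPM across 8 mice, with the genotype means taken out, was 0.55, and 55.5% of pairs were above 0.5. Over all pairs of tested genes the median was 0.00 and 13.7% were above 0.5. This correlation is a description over genes that share 8 libraries and their depth. It rested on the 2 high mice: without m677 the median was 0.43, without m671 it was 0.49, and without both it was 0.19 over 6 mice, with 28.2% of member pairs and 20.2% of all gene pairs above 0.5. Fau and Rack1, which encode ribosomal proteins but are named otherwise, moved with the members at r of 0.87 and 0.69. Movement together within a list was not particular to the members. The median r of pairs was 0.38 among 18 other mRNAs with a terminal oligopyrimidine tract and 0.92 among oligodendrocyte markers. It was 0.14 among mitochondrial ribosomal proteins and -0.05 among ribosome assembly genes.

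Among the members closest to the mean of the others were Rpl13 (r = 0.98) and Rps7 (r = 0.97). Rpl13, a large subunit protein, had 316.7, 265.7, 274.2 and 286.0 CPM in PS19 mice and 298.3, 267.0, 271.7 and 261.0 CPM in Adrb1-A187V;PS19 mice, highest in m677 and m671 in their groups. Of the 79 members, 32 had an r above 0.8 with the mean of the others, where 1.4% of the 17116 tested genes that are no members had such an r with the member mean. A further 2.19% of these other genes ran against the member mean, with an r below -0.8. The members with the lowest r were Rpl13a (-0.42), Rpl7a (-0.21) and Rpl22l1 (0.03), and they were followed by Rpl21 (0.07), Rps27a (0.11) and Rps27 (0.14). Rpl7a, a large subunit protein with 43 copies, was high only in m661, with 51.4 CPM against 30.8 to 40.7 CPM in the other 7 mice.

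**Figure D5:**
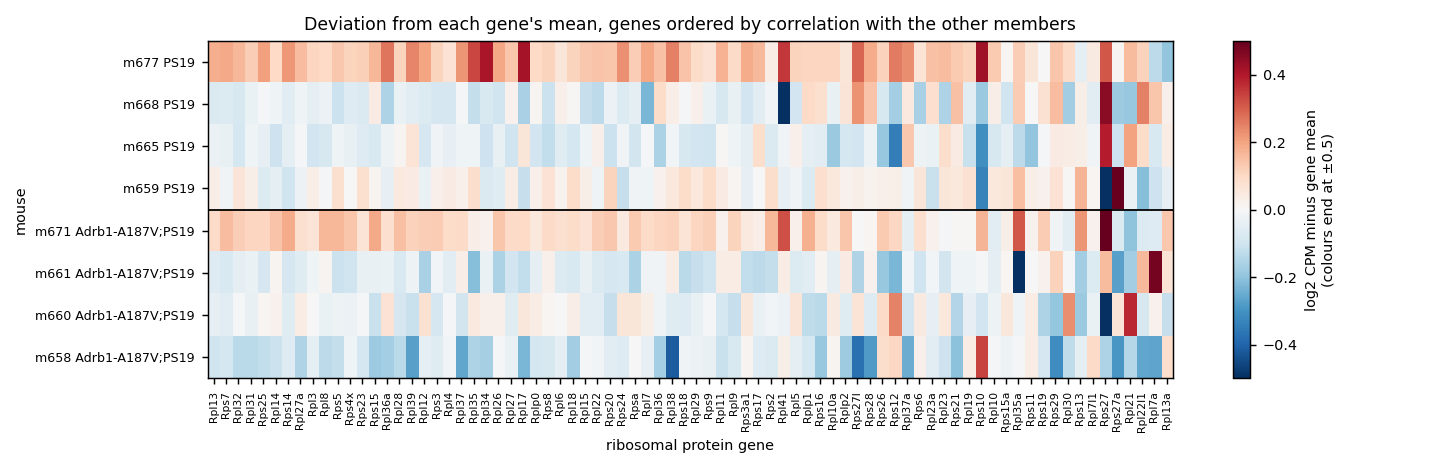
Log2 CPM of 78 tested ribosomal protein genes, each minus its mean over the 8 mice (colour, ends at ±0.5), genes ordered from the highest to the lowest correlation with the other members, mice in rows with a line between genotypes. The rows of m677 and m671 are red for 74 and 69 of the 78 genes, and single dark cells mark Rps27, Rps27a, Rpl41, Rpl35a and Rpl7a.

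When the reads of each member were summed with those of its copies, a step added after the values were seen, the SD within genotypes fell from 0.64 to 0.16 on the log2 scale for Rps27, from 0.27 to 0.13 for Rps10, from 0.21 to 0.09 for Rpl17 and from 0.23 to 0.16 for Rpl21. It changed little for Rps27a (0.36 and 0.34) and Rpl41 (0.32 and 0.31). The 3 genes called before were called again in these sums. Copies held only 0.172% of the summed reads of Rps21, 1.85% for Rpl37a and 1.48% for Rps29, so this repeat could hardly come out otherwise. Rps28, a small subunit protein, passed as well in the sums (log2 fold change -0.15, unadjusted p = 0.0447 and adjusted p = 0.9996, edgeR).

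Outside the ribosome, the protein-coding genes most like the member mean over the 8 mice, at a mean of at least 10 CPM and with genotype means taken out, were Rnf7 (r = 0.97), Sptssa (r = 0.97), Tmsb4x (r = 0.97), Timm17b (r = 0.96) and Pcna (r = 0.95). None of the 5 passed an unadjusted p of 0.05 by genotype. Each was highest in m677 or m671, which their choice by correlation with the member mean favours. Of 9 marker lists of cell types, 0 had m677 and m671 as the 2 highest mice. The oligodendrocyte markers came near it, with an average of 0.16 in m677, 0.09 in m671 and -0.14 in m658 on the log2 scale, but were highest in m665 (0.21). Among these markers, Mbp, Mag and Cnp had an r of 0.64, 0.63 and 0.64 with the member mean, and Mobp and Mog of 0.33 and 0.28. The red blood cell markers averaged 0.27 in m677 and 0.11 in m671, and were highest in m658 (0.37). The astrocyte markers averaged 0.20 in m677 but -0.07 in m671 on the log2 scale, and the microglia markers 0.16 and -0.03, with higher values of both in m659 and m660 than in m671. The part of cell composition in the covariation was not tested.

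Among related pathways taken from lists, no gene passed an unadjusted p of 0.05. This held for 13 genes of mTORC1 and the control of ribosomal protein translation (median log2 fold change -0.04), such as Mtor (-0.07) and Larp1 (-0.07), for 18 other mRNAs with a terminal oligopyrimidine tract (median 0.02), such as the elongation factors Eef1a1 (0.07) and Eef2 (0.03), for 24 ribosome assembly genes (median -0.00), for Fau and Rack1, and for 76 tested mitochondrial ribosomal proteins (median -0.01, 41 below 0). DESeq2 and limma-voom likewise called 0 in these lists. Of the 18 other tract mRNAs, 5 had a fold change below 0, which was not tested against the share of the members.

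Of 111 copies of members that passed the filter, 3 (2.7%) were higher and 4 (3.6%) lower at an unadjusted p under 0.05, where 1.42% of all tested genes were higher and 1.37% lower, with a median log2 fold change of 0.00. Gm7536, a processed copy of Rpl27a on chr3:24333068-24333511, had 168, 132, 170 and 158 counts in PS19 mice and 291, 226, 208 and 433 counts in Adrb1-A187V;PS19 mice, with no overlap (log2 fold change 0.80, unadjusted p = 0.00259 and adjusted p = 0.9996, edgeR). Rpl27a itself had a log2 fold change of -0.05. All words of 31 bases in Gm7536 also occur in the Rpl27a mRNA, so that reads of these genes could be exchanged.

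Some cortical excitatory and inhibitory neuron markers passed an unadjusted p under 0.05 by genotype (edgeR), where 2.8% of all tested genes passed. None of them passed after adjustment. Of 6 cortical excitatory markers, Slc17a7, Tbr1 and Neurod6 were lower in Adrb1-A187V;PS19 mice at an unadjusted p under 0.05 and all 6 were below 0 (median log2 fold change -0.16). Their summed level ran from 1500 to 1750 CPM in PS19 mice and from 1340 to 1560 CPM in Adrb1-A187V;PS19 mice, and none was at 0 in any mouse. Of 6 inhibitory markers, Gad2 and Slc32a1 were higher and Vip lower, with sums of 1030 to 1080 and 1040 to 1170 CPM. None of 6 astrocyte, 6 microglia, 6 oligodendrocyte, 6 endothelial, 6 general neuron, 5 choroid plexus and 5 red blood cell markers passed. The part of these cell types in the lower values of Rps21, Rpl37a and Rps29 was not tested.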

How the data were processed

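Total RNA from the cortex of 8 mice, 4 per genotype, was sequenced as paired-end reads by the authors, who aligned them to GRCm38/mm10 with HISAT2 2.0.5 and counted reads per gene with featureCounts 1.5.0-p3. The deposited values are raw counts for 54532 genes. The strand setting and the handling of reads with several matches are not given in the sources used here. The authors used DESeq2 1.20.0 at an unadjusted p under 0.05.

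Counts were tested with edgeR 4.0.16 in R 4.3.3 (quasi-likelihood test, filterByExpr, TMM, genotype as the only term, Benjamini-Hochberg adjustment over all 17195 genes). A called gene is one at an unadjusted p under 0.05, and a value below 0 means lower in Adrb1-A187V;PS19 mice. CPM used TMM library sizes, log2 CPM a prior count of 2, and CPM per kb the length column of the table. Totals of 14653222 to 21223754 counts set the counting error, which is a part of the SE of the fit and of the SD among mice. Tested on simulated data of 16960 genes made from this comparison, the test recovered 97.5% of 200 genes changed by a fold of 2 at an unadjusted p under 0.05. It also passed 4.97% of the unchanged genes. Changes as small as those of the members were not simulated. Copies were found in GENCODE vM21 (GRCm38) by shared words of 31 bases, and windows of 150 bases. Alternatives used DESeq2 1.42.0, limma 3.58.1 (voom) and sva 3.50.0. Paralog shares were compared with an exact permutation test (numpy 2.4.6).

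The members and lists were chosen with earlier results of these data known. Genes named were all members called, the 5 highest and 5 lowest per kb, the 3 highest and 3 lowest in correlation, paralog pairs, a set of known members, members that failed the filter, and the 5 most similar other genes. Rps28, Rpl41, Rpl7a, Rps27rt and the copies were picked after their values were seen. Protein sequences were not used here. A named member, left out of the figures as well, and other genes of the lists are not reported here.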

Additional observations from a re-analysis of the deposited data

Results flagged for a closer look

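Among the named genes and the summary values of the members, 76 groups of 4 mice were checked for 1 mouse far from the rest, and 4 were flagged, where chance flags about 1 in 20. In PS19 mouse m659, Rps27 was at 34.87 CPM, below 95.6 to 105.3 CPM in the other PS19 mice, and Rps27a was at 115.6 CPM, above 56.81 to 64.91 CPM. In PS19 mouse m677, Rps10 was at 3.368 CPM, above 1.988 to 2.209 CPM. In Adrb1-A187V;PS19 mouse m671, Rps7 was at 182.8 CPM, above 154.3 to 157.8 CPM. Over all 79 tested members, 12 of 158 groups were flagged.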

How the results depend on the processing

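No paired analysis was possible because each mouse is named by its own number and the labels hold no replicate or pair number shared between genotypes. The count of members called, 3 in the reported fit, was 10 without a filter beyond 1 count, a fit that called 4.06% of all genes, and 4 with 1 surrogate variable and with members summed with their copies. It stayed at 3 under DESeq2 (1.65% of its 33611 genes called) and limma-voom (2.86% of all genes called). It also stayed at 3 under DESeq2 size factors, TMM computed without the members, and at least 10 counts in every mouse. The same held for protein-coding genes only, and without m677 and m671 together. Where no share of all genes is given, the count of members was not set against it and is no result about the members. When 1 mouse was left out it ran from 2 to 10, which was not set against the share of all genes called in those fits. The median log2 fold change ran from -0.08 to 0.01 when 1 mouse was left out and from -0.04 to -0.03 under the other alternatives. The median pairwise correlation ran from 0.43 to 0.61 when 1 mouse was left out and was 0.19 without m677 and m671, fewer mice and without the 2 highest. It was 0.53 to 0.59 under the other alternatives. No share of a paralog passed 0.05 in any alternative. The 9 genes of other lists called were 7 to 10 in the alternatives. Among repeats for single named genes, 611 kept their side of the threshold, 10 gained an unadjusted p under 0.05 and 5 lost it, all 5 for Rps29. With 4 mice per genotype and a median SE of 0.07 on the log2 scale for a member, smaller shifts of single members were not resolved.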
